A study of Hydra vulgaris with 36 samples.

Results

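The comparison described here set Hydra vulgaris polyps that had just spent 48 h in the gamma-secretase inhibitor DAPT against polyps kept for the same time in the solvent alone, with no recovery period. Its members were the 12 libraries collected at the end of the incubation (0 h) out of the 36 libraries of the series, chosen by treatment and time, 6 with DAPT and 6 with DMSO. All animals were whole polyps of the Basel strain that had been starved for 24 h. The DAPT animals were kept in 20 µM DAPT with 1% DMSO, and the DMSO animals in 1% DMSO without the inhibitor. Both solutions were renewed at intervals of 12 h, and about 25 animals were pooled per sample. The count columns carry the letters P and S in place of the treatment. P was read as DAPT and S as DMSO from the letters of both words, and every direction below would be mirrored under the opposite reading.

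Gamma-secretase is the protease complex that cuts the Notch receptor after it has bound a ligand on a neighbouring cell. The cut releases the intracellular part of the receptor, which enters the nucleus and acts with the DNA-binding protein CSL to turn on target genes, among them transcription factors of the Hes family. In Hydra, Notch signalling is known for its part in the differentiation of nematocytes, the stinging cells that arise from interstitial stem cells, and in patterning of the head and of the boundary between bud and parent. DAPT blocks the cut in the receptor, and it also blocks the cutting of other gamma-secretase substrates. The genes in these data carry identifiers of a Trinity assembly, and 0 of the 12410 identifiers were found in the RefSeq gene table of the species. Nematocyte markers, Notch pathway members and Hes genes could therefore not be read, and genes are described by level, size of difference and spread. In samples of whole animals, fewer cells of a type and less RNA per cell cannot be told apart.

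Total counts were 8518484 to 15310480 in the DAPT libraries and 8564579 to 14060485 in the DMSO libraries. In log2 CPM over all tested genes, the first principal component held 36.2% of the variance and did not separate the treatments: the DAPT libraries lay between -23.4 and 47.7, and the DMSO libraries fell on both sides, with replicates 1, 2 and 3 at one end, from -47.8 to -31.3, and replicates 4, 5 and 6 from 4.86 to 25.7. The second component held 29.2%. On it the DAPT libraries lay between 3.92 and 43.7 and the DMSO libraries between -38.8 and 4.66, so the groups met only at DMSO replicate 1 and the lowest 2 DAPT libraries. The median correlation of a library with the others of its group was 0.956 to 0.980 in DAPT and 0.947 to 0.961 in DMSO. With the libraries of the other group it was 0.938 to 0.956 for DAPT libraries and 0.926 to 0.960 for DMSO libraries. DMSO replicate 4 correlated more with the DAPT libraries (0.958) than with its own group (0.947), and DMSO replicate 5 about equally with both (0.960 and 0.961). The labels call the samples biological replicates, without saying how they were kept apart.

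After 48 h with the inhibitor, transcripts that differed were mostly lower. With a quasi-likelihood test of edgeR fitted on these 12 libraries alone, 638 of 12051 tested genes were lower in DAPT and 228 were higher at an adjusted p (Benjamini-Hochberg, BH) under 0.05. These calls made up 5.29% and 1.89% of the tested genes, 7.19% in all. A difference of at least 2-fold was seen in 430 lower and 123 higher genes, and one of at least 4-fold in 147 and 26. The middle 50% of the lower genes spanned log2 fold changes of -1.93 to -0.91 around a median of -1.29, and the middle 50% of the higher genes 0.72 to 1.52 around 1.08. Over all tested genes the median was 0.01. A fit with 3 surrogate variables, which absorb variation between libraries that the treatment leaves, called 1231 lower and 776 higher genes. At the small end, 42 lower and 28 higher genes differed by less than 1.5-fold.

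**Figure D1:**
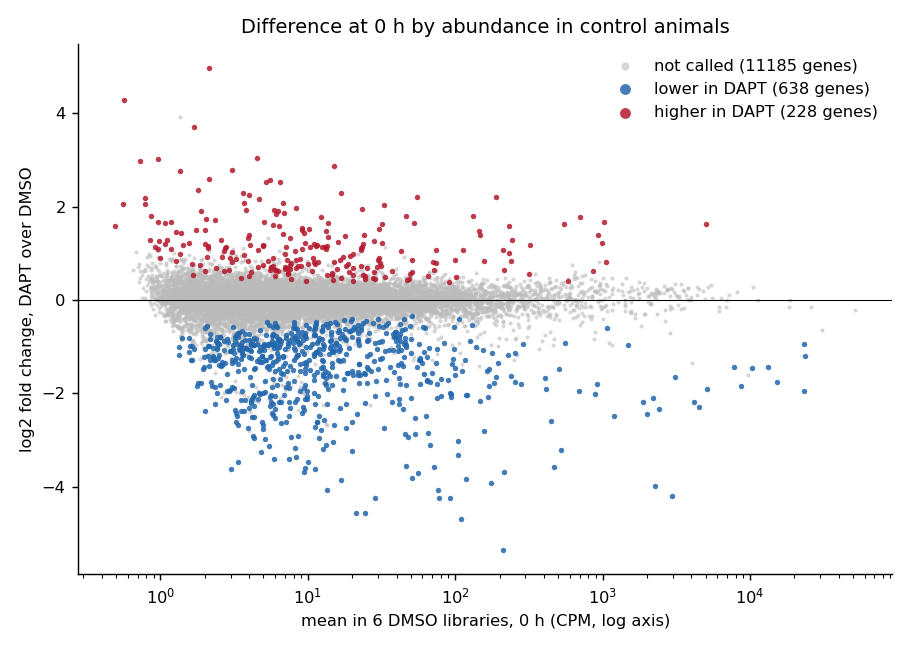
Each point is a gene tested at 0 h, placed by its mean in the 6 DMSO libraries (CPM, log axis) and its log2 fold change of DAPT over DMSO. The 638 genes called lower lie below 0 down to -5.35, and the 228 called higher lie above 0 up to 4.97.

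Levels are given in CPM, counts as a share of the library total after TMM scaling. They are not divided by transcript length, so they compare libraries and show how many reads a gene took, but not which of 2 genes had more molecules. In the middle range, 263 of 4314 genes with 10 to under 100 CPM in DMSO were lower in DAPT and 81 higher. Of 6632 genes with 1 to under 10 CPM, 310 were lower and 109 higher, and of 985 genes with at least 100 CPM, 65 were lower and 24 higher. The shares called were thus 6.32%, 7.97% and 9.04% from the low to the high class, and lower genes made up 74.0%, 76.5% and 73.0% of these calls.

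Falls were deepest in the median among the abundant genes, although the classes were not tested against each other. The median log2 fold change of lower genes was -1.23, -1.21 and -1.80 from the low to the high class, and that of higher genes 1.11, 0.86 and 1.20. At least a 4-fold difference was reached by 25 of the 65 lower genes in the class of at least 100 CPM. A further 120 genes stood under 1 CPM in DMSO. Of these, 14 were higher in DAPT and 0 lower, but nothing can be read from this split, since a gene so low in DMSO could pass the filter on counts through its DAPT libraries, and a fall from there would leave almost no reads.

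Of the genes called lower, 79 stood at or above 1 CPM in DMSO while the mean in DAPT was under 1 CPM, and 4 of these had a DMSO mean of 10 CPM or more. Another 3 called genes had a mean of at least 100 CPM in DMSO and under 10 CPM in DAPT. Of the genes called higher, 14 under 1 CPM in DMSO reached at least 1 CPM in DAPT, and 11 from 10 to under 100 CPM reached 100 CPM or more. The deposited table holds only genes with a value above 0 in every library of the series, so a gene switched off completely was not seen.

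The 5 lower genes with the smallest p had separate groups in every case. TRINITY_DN40055_c0_g1 ranged from 8.75 to 13.8 CPM in DAPT, with a median of 11.5, and from 129 to 242 CPM in DMSO, with a median of 162. Its means were 11.5 ± 2.04 and 174 ± 45.5 CPM (SD, n = 6 each), a 15.2-fold fall (log2 fold change -3.92, SE 0.20, edgeR BH adjusted p = 1.08e-07). The lowest DMSO library was thus far above the highest DAPT library.

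TRINITY_DN629_c0_g1 ranged from 3.09 to 6.26 CPM in DAPT (median 5.00) and from 53.4 to 111 CPM in DMSO (median 95.8). Its log2 fold change was -4.23 (SE 0.21, edgeR BH adjusted p = 1.08e-07). TRINITY_DN448_c0_g1 ranged from 2.64 to 4.94 CPM in DAPT (median 4.28) and from 44.0 to 104 CPM in DMSO (median 83.1), with a log2 fold change of -4.25 (SE 0.23). In both genes DMSO replicate 2 was the lowest control library and still lay at least 8 times above the highest DAPT value. TRINITY_DN16506_c0_g1 was lower in level, at 1.06 to 2.01 CPM in DAPT (median 1.47) and 14.6 to 34.0 CPM in DMSO (median 31.1), and its log2 fold change was -4.24 (SE 0.24). Its lowest DAPT library held 12 counts. TRINITY_DN39134_c0_g1 had the tightest values of the 5, at 3.96 to 5.95 CPM in DAPT (median 4.80) and 26.4 to 39.2 CPM in DMSO (median 33.8), a 6.65-fold fall (log2 fold change -2.73, SE 0.14).

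The 3 largest falls among called genes came with wider spread in the controls. TRINITY_DN11402_c0_g1 fell 40.8-fold (log2 fold change -5.35, SE 0.32, edgeR BH adjusted p = 2.47e-07). It ranged from 2.92 to 7.80 CPM in DAPT (median 4.97) and from 131 to 355 CPM in DMSO (median 192). Its lowest DMSO library was 16.7 times its highest DAPT library, the widest gap among all called lower genes. TRINITY_DN9575_c0_g1 ranged from 2.87 to 5.64 CPM in DAPT (median 4.28) and from 33.2 to 239 CPM in DMSO (median 103), with a log2 fold change of -4.68 (SE 0.46, edgeR BH adjusted p = 1.43e-05). The groups were separate, but the 6 control libraries were spread widely. TRINITY_DN522_c0_g1 ranged from 0.530 to 1.31 CPM in DAPT (median 0.952) and from 5.71 to 33.3 CPM in DMSO (median 21.1), with a log2 fold change of -4.55 (SE 0.42, edgeR BH adjusted p = 8.38e-06). The lowest DAPT library of this gene held 6 counts.

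Among rising genes the smallest p belonged to TRINITY_DN2171_c0_g1. It ranged from 8.05 to 14.7 CPM in DAPT (median 10.8) and from 0.385 to 0.917 CPM in DMSO (median 0.470), a log2 fold change of 4.29 (SE 0.23, edgeR BH adjusted p = 1.18e-07). TRINITY_DN2004_c0_g1 showed the largest rise, 31.3-fold (log2 fold change 4.97, SE 0.31, edgeR BH adjusted p = 3.35e-07). It ranged from 41.5 to 83.8 CPM in DAPT (median 67.5) and from 1.07 to 4.13 CPM in DMSO (median 1.69), and its lowest DAPT library was 10.1 times its highest DMSO library. Both genes were close to the lower end of the measured levels in control animals and well within the range in treated ones.

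The other 3 rising genes with the smallest p had smaller differences. Replicates were tight in TRINITY_DN767_c0_g1 and TRINITY_DN1758_c0_g1, with an SD of log2(CPM + 0.5) of 0.20 and 0.17 in DAPT. In TRINITY_DN11146_c0_g1 it was 0.33 in DAPT and 0.26 in DMSO, against medians of 0.28 and 0.32 over all genes called higher. TRINITY_DN11146_c0_g1 ranged from 15.8 to 29.0 CPM in DAPT (median 19.7) and from 2.29 to 3.95 CPM in DMSO (median 3.20), with a log2 fold change of 2.79 (SE 0.19, edgeR BH adjusted p = 7.04e-07). TRINITY_DN767_c0_g1 ranged from 18.0 to 25.4 CPM in DAPT (median 22.8) and from 4.70 to 7.49 CPM in DMSO (median 5.90), with a log2 fold change of 1.93 (SE 0.14). TRINITY_DN1758_c0_g1 rose 2.87-fold, at 78.0 to 105 CPM in DAPT (median 85.4) and 24.8 to 33.6 CPM in DMSO (median 31.2), with a log2 fold change of 1.52 (SE 0.11, edgeR BH adjusted p = 1.52e-06). In none of the 5 rising genes did the groups overlap.

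**Figure D2:**
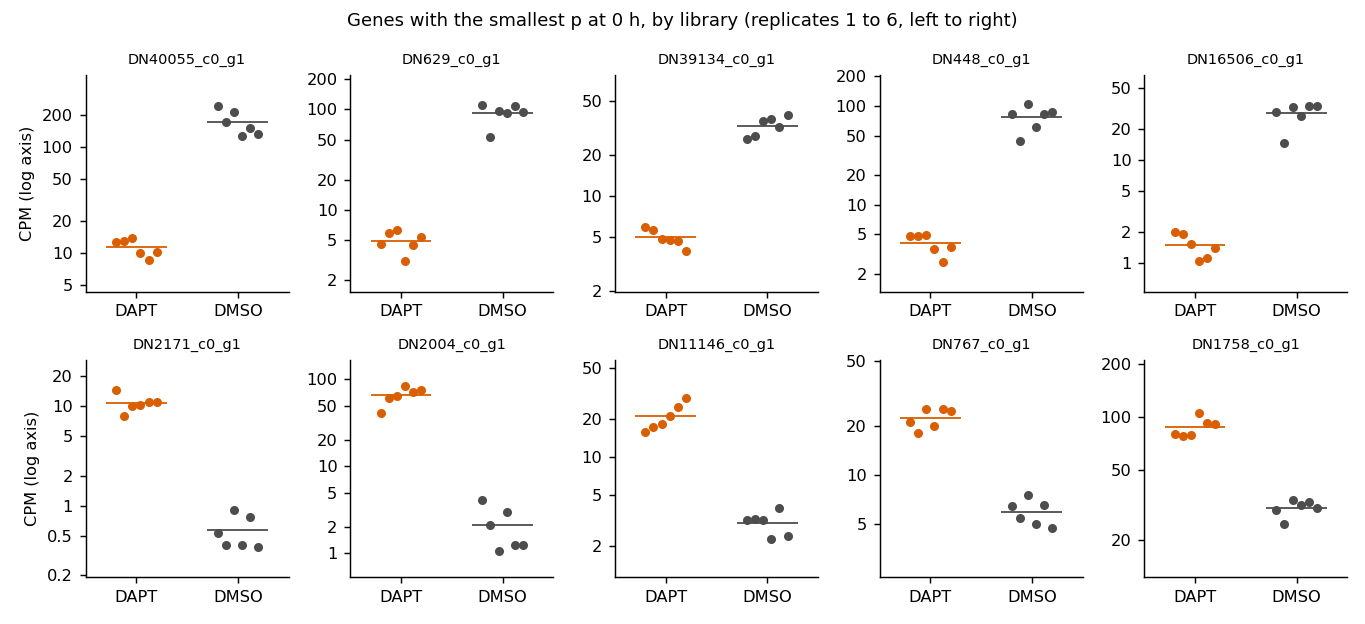
The 5 lower (upper row) and 5 higher (lower row) genes with the smallest p, as CPM on a log axis, with a point for each of the 6 DAPT and 6 DMSO libraries and a line at each group mean. The groups are separate in all 10 genes, for example 8.75 to 13.8 against 129 to 242 CPM in TRINITY_DN40055_c0_g1.

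A few very abundant genes carried most of the difference in reads. Summed over the 638 lower genes, the share of all counts was 6.36 ± 1.19% in DAPT and 16.4 ± 5.86% in DMSO (SD, n = 6 each), and 10 of them accounted for 74.4% of this DMSO share. These 10 genes took 4.05% to 6.44% of the counts in DAPT libraries and 4.70% to 18.3% in DMSO libraries. The groups overlapped in this share because DMSO replicate 2 stood at 4.70%. The other 628 lower genes took 1.09% to 1.58% in DAPT and 3.19% to 6.20% in DMSO, with no overlap. The 228 higher genes took 4.27% to 5.34% in DAPT and 1.496% to 1.88% in DMSO. These shares are descriptions without a test, since the genes were called on the same libraries.

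In the libraries of 3 h and 6 h after removal, which took no part in the calls, the same 3 sets kept their order of group means. The 10 abundant genes took 5.20 ± 2.42% in DAPT and 11.1 ± 5.12% in DMSO at 3 h, and 6.42 ± 2.96% and 12.9 ± 5.15% at 6 h. The other lower genes took 1.38 ± 0.381% in DAPT and 3.98 ± 1.13% in DMSO at 3 h, and 1.55 ± 0.655% and 4.02 ± 1.72% at 6 h. The higher genes took 4.75 ± 1.12% in DAPT and 1.88 ± 0.451% in DMSO at 3 h, and 3.64 ± 0.449% and 1.57 ± 0.248% at 6 h (SD, n = 6 each). At 3 h the groups did not overlap in the share of the other lower genes or of the higher genes, and at 6 h they did not overlap in that of the higher genes.

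**Figure D3:**
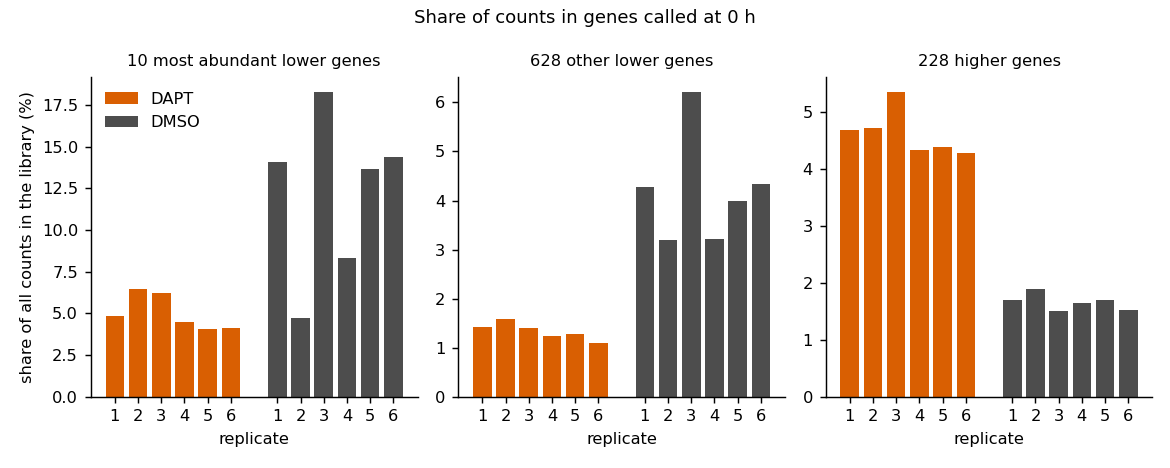
Share of all counts in each 0 h library (%, bars, replicates 1 to 6) taken by the 10 most abundant lower genes, the 628 other lower genes and the 228 higher genes. DMSO replicate 2 stands at 4.70% for the 10 abundant genes, within the range of the DAPT libraries, while the other panels show no overlap.

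The 4 lower genes with the highest levels in DMSO varied widely between replicates. TRINITY_DN2787_c2_g1 ranged from 7650 to 15366 CPM in DAPT (median 8638) and from 10475 to 37292 CPM in DMSO (median 23439), with a log2 fold change of -1.20 (SE 0.31, edgeR BH adjusted p = 0.0281). TRINITY_DN744_c0_g1 ranged from 3033 to 9849 CPM in DAPT (median 5445) and from 5224 to 48958 CPM in DMSO (median 22539), with a log2 fold change of -1.94 (SE 0.47, edgeR BH adjusted p = 0.0194). The groups overlapped in both genes.

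TRINITY_DN1280_c0_g1 ranged from 9462 to 17292 CPM in DAPT (median 10835) and from 10235 to 30870 CPM in DMSO (median 26336), with a log2 fold change of -0.94 (SE 0.27, edgeR BH adjusted p = 0.0487). TRINITY_DN3061_c1_g1 ranged from 2254 to 7374 CPM in DAPT (median 3939) and from 4069 to 33441 CPM in DMSO (median 13661), with a log2 fold change of -1.75 (SE 0.46, edgeR BH adjusted p = 0.0319). The libraries followed nearly the same order in all 4 genes. In DAPT, replicates 2 and 3 were the highest and replicate 5 the lowest in each gene. In DMSO, replicates 3 and 1 were the highest and replicates 4 and 2 the lowest in each. These genes thus varied together among animals of the same treatment.

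DMSO replicates 1 and 3 also had the smallest scaling factors, 0.761 and 0.764 against 1.03 to 1.20 in the other DMSO libraries, and the largest shares of counts in their 20 most abundant genes, 35.0% and 40.9%. That share included the 4 genes themselves in DMSO replicate 3, so it is not a separate property of that library. In DMSO replicate 1 it included at least TRINITY_DN2787_c2_g1, TRINITY_DN744_c0_g1 and TRINITY_DN1280_c0_g1. Replicates 1 and 3 were also the highest controls in each of the 4 genes, so leaving them out in itself favours smaller falls. Without these 2 libraries, left out after the data were seen, all 4 calls were lost (edgeR BH adjusted p from 0.127 to 0.226). The log2 fold changes were then -0.78 for TRINITY_DN2787_c2_g1, -1.27 for TRINITY_DN744_c0_g1, -0.68 for TRINITY_DN1280_c0_g1 and -1.01 for TRINITY_DN3061_c1_g1, smaller than with all 12 libraries but still below 0. With library totals in place of scaling factors the 4 log2 fold changes were -1.04 for TRINITY_DN2787_c2_g1, -1.75 for TRINITY_DN744_c0_g1, -0.81 for TRINITY_DN1280_c0_g1 and -1.55 for TRINITY_DN3061_c1_g1, and all 4 were called (edgeR BH adjusted p from 0.00778 to 0.0263). The calls lay close to the threshold, and leaving out any of several libraries ended them. That of TRINITY_DN2787_c2_g1 was lost without DMSO replicate 1 or 3 or DAPT replicate 1, 4, 5 or 6 (edgeR BH adjusted p from 0.0582 to 0.0752), with log2 fold changes of -1.17 to -1.02, and that of TRINITY_DN3061_c1_g1 without the same libraries (0.0604 to 0.0814). That of TRINITY_DN744_c0_g1 was lost without DAPT replicate 4 or 6 (edgeR BH adjusted p = 0.05005 and 0.0529), with a log2 fold change of -1.88 in both cases. That of TRINITY_DN1280_c0_g1 was lost without any library other than DMSO replicate 2 or 4 or DAPT replicate 3 (edgeR BH adjusted p from 0.0595 to 0.110). In the other direction, all 4 calls were kept without DMSO replicate 2, the lowest control in each gene (edgeR BH adjusted p from 0.00338 to 0.00868). They were also kept without DMSO replicate 4 (edgeR BH adjusted p from 0.0103 to 0.0359).

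The 4 most abundant higher genes did not overlap between groups. TRINITY_DN804_c0_g1 had the smallest spread, at 1738 to 2038 CPM in DAPT (median 1828) and 906 to 1185 CPM in DMSO (median 1046), and rose 1.77-fold (log2 fold change 0.82, SE 0.11, edgeR BH adjusted p = 0.000247). TRINITY_DN3406_c0_g2 was the most abundant, at 9992 to 24966 CPM in DAPT (median 13715) and 3119 to 8123 CPM in DMSO (median 4775), with a log2 fold change of 1.63 (SE 0.28, edgeR BH adjusted p = 0.00190). It alone took 1.58% of all counts in DAPT and 0.467% in DMSO on average. TRINITY_DN1822_c0_g1 ranged from 2323 to 5025 CPM in DAPT (median 2958) and from 668 to 1405 CPM in DMSO (median 1029), with a log2 fold change of 1.67 (SE 0.25, edgeR BH adjusted p = 0.000473). TRINITY_DN69_c0_g1 ranged from 2023 to 3153 CPM in DAPT (median 2098) and from 571 to 1570 CPM in DMSO (median 913), with a log2 fold change of 1.23 (SE 0.22, edgeR BH adjusted p = 0.00237). In TRINITY_DN3406_c0_g2 and TRINITY_DN1822_c0_g1, replicates 1 to 3 lay above replicates 4 to 6 in both groups, as also in TRINITY_DN40055_c0_g1. In DAPT alone this order was also seen in lower genes such as TRINITY_DN11402_c0_g1, TRINITY_DN9575_c0_g1 and TRINITY_DN448_c0_g1. The reverse order was seen in DAPT in the rising TRINITY_DN2004_c0_g1, TRINITY_DN11146_c0_g1 and TRINITY_DN1758_c0_g1. Neither order held in others, such as TRINITY_DN629_c0_g1 and TRINITY_DN767_c0_g1. The split was not tested. The calls of the 4 most abundant higher genes were each kept when any 1 of the 12 libraries was left out.

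**Figure D4:**
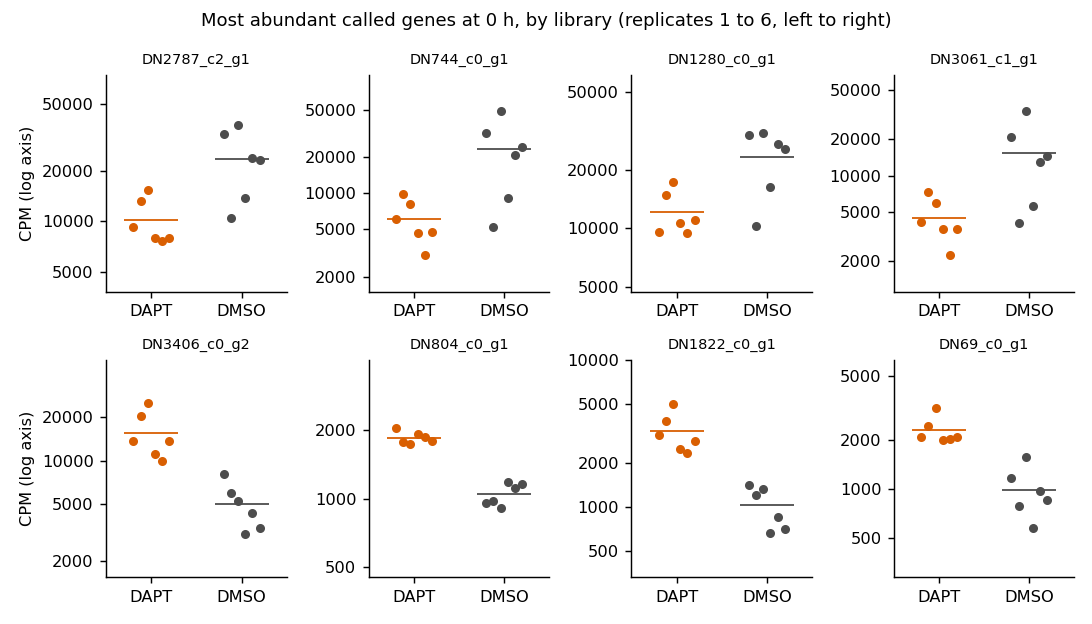
The called genes with the highest DMSO means, 4 lower (upper row) and 4 higher (lower row), as CPM on a log axis, with a point for each library in the order of replicates 1 to 6 and a line at each group mean. The lower genes overlap between groups through DMSO replicates 2 and 4, as in TRINITY_DN744_c0_g1 with 3033 to 9849 CPM in DAPT and 5224 to 48958 CPM in DMSO, while the higher genes do not overlap.

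The spread between replicates was larger in control animals than in treated ones. The SD of log2(CPM + 0.5) was larger in DMSO than in DAPT in 64.2% of all tested genes, against 71.9% of those called lower and 68.0% of those called higher. Its median over all genes was 0.28 in DAPT and 0.33 in DMSO. For lower genes the medians were 0.30 and 0.39, and for the 147 genes lower by at least 4-fold 0.37 and 0.55. All 6 DAPT libraries lay below all 6 DMSO libraries in 410 of the 638 lower genes, and above them in 157 of the 228 higher genes. Over all tested genes this held for 3.6% and 1.58%, or 5.19% in either direction. The gap between the nearest libraries was at least 2-fold in 82 lower and 26 higher genes, and at least 4-fold in 21 and 3.

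Most of the called genes with overlap would have separate groups with 1 library left out, not the same library for every gene. Leaving out a library can only move groups apart, so these counts describe the overlaps and test nothing. For some genes more than 1 library would do, and the share over genes not called was not taken. Of the 228 lower genes whose groups overlapped, 182 would be separate without some 1 library. Leaving out DMSO replicate 2 separated 54 of them, DMSO replicate 4 separated 42 and DAPT replicate 3 separated 32. DMSO replicate 2 was the lowest control in 36.8% of the lower genes and in 16.8% of all genes, and DMSO replicate 3 was the highest control in 39.7% of the lower genes and in 19.1% of all. Of the 71 higher genes with overlap, 68 would be separate without some 1 library, 17 of them without DAPT replicate 1 and 17 without DMSO replicate 1.

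Some of the widest spreads among called genes came from DMSO replicates 1, 2 and 3, the libraries at one end of the first principal component. TRINITY_DN40334_c0_g1 stood at 75.9, 79.6 and 103 CPM in these 3 libraries and at 4.31, 11.4 and 12.0 CPM in DMSO replicates 4, 5 and 6, while DAPT libraries ranged from 3.02 to 12.2 CPM. Its log2 fold change of -2.94 (SE 0.71, edgeR BH adjusted p = 0.0194) therefore averages 3 control libraries far above the DAPT values and 3 within their range. The call was lost without DMSO replicate 3 (adjusted p = 0.05001). TRINITY_DN390_c0_g3 had the same pattern, with 1.43 to 5.38 CPM in DAPT, 27.7 to 30.1 CPM in DMSO replicates 1 to 3 and 2.56 to 5.68 CPM in DMSO replicates 4 to 6 (log2 fold change -2.31, SE 0.64, edgeR BH adjusted p = 0.0431). In DAPT, its replicates 1 to 3 also lay above replicates 4 to 6, at 3.71 to 5.38 against 1.43 to 3.575 CPM, unlike in TRINITY_DN40334_c0_g1. The call of TRINITY_DN390_c0_g3 was kept only without DMSO replicate 4, 5 or 6, and the other 9 libraries gave adjusted p from 0.05001 to 0.101. With replicate number as a block, both genes stayed called (edgeR BH adjusted p = 0.0378 for TRINITY_DN40334_c0_g1 and 0.0312 for TRINITY_DN390_c0_g3). With limma-voom neither was called (BH adjusted p = 0.117 and 0.251). These fits do not test a split within DMSO alone, so its part in these calls was not tested.

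Among genes that were not called, 91 were lower and 12 higher by at least 2-fold. Those lower had a median SD of log2(CPM + 0.5) of 0.68 in DAPT and 1.05 in DMSO. The 3 largest differences at a level of at least 1 CPM all came with a few libraries far from the rest. TRINITY_DN37927_c0_g1 ranged from 0.377 to 4.51 CPM in DAPT, with 24.1 to 25.0 CPM in DMSO replicates 1 to 3 and 1.61 to 2.98 CPM in replicates 4 to 6 (log2 fold change -2.68, SE 0.77, edgeR BH adjusted p = 0.0533). Without DMSO replicate 4, 5 or 6 or DAPT replicate 3 it was called (adjusted p from 0.0202 to 0.0471). Its DAPT replicates 1 to 3 (1.47 to 4.51 CPM) also lay above replicates 4 to 6 (0.377 to 1.40 CPM), which did not hold in TRINITY_DN5934_c0_g1. TRINITY_DN5934_c0_g1 ranged from 0.0883 to 1.41 CPM in DAPT and from 0.202 to 8.86 CPM in DMSO, again high in replicates 1 to 3 (log2 fold change -2.80, SE 0.86, edgeR BH adjusted p = 0.0687), and was called without DMSO replicate 4 or 6 (adjusted p = 0.0193 and 0.0459).

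In the rising direction the spread came from DAPT replicate 3. TRINITY_DN4094_c0_g1 stood at 113 CPM in this library and at 1.66 to 3.26 CPM in the other 5, against 0.693 to 2.00 CPM in DMSO (log2 fold change 3.93, SE 1.181, edgeR BH adjusted p = 0.0639). Without DAPT replicate 3 the log2 fold change was 0.78 (adjusted p = 0.128), and without DAPT replicate 1 or 2 it was 4.17 and called (adjusted p = 0.0491 and 0.0486). TRINITY_DN970_c0_g1 stood at 87.5 CPM in DAPT replicate 3 and at 15.7 to 25.2 CPM in the other 5, against 3.97 to 6.65 CPM in DMSO. Here the groups were separate, and without that library the log2 fold change was 1.85 in place of 2.53, with edgeR BH adjusted p = 9.40e-06 in place of 0.00148. TRINITY_DN3649_c0_g2 was variable among controls, at 0.399 to 3.70 CPM (median 1.54), but stood at 12.8 to 32.9 CPM in DAPT (median 20.2), with a log2 fold change of 3.71 (SE 0.47, edgeR BH adjusted p = 0.000142).

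**Figure D5:**
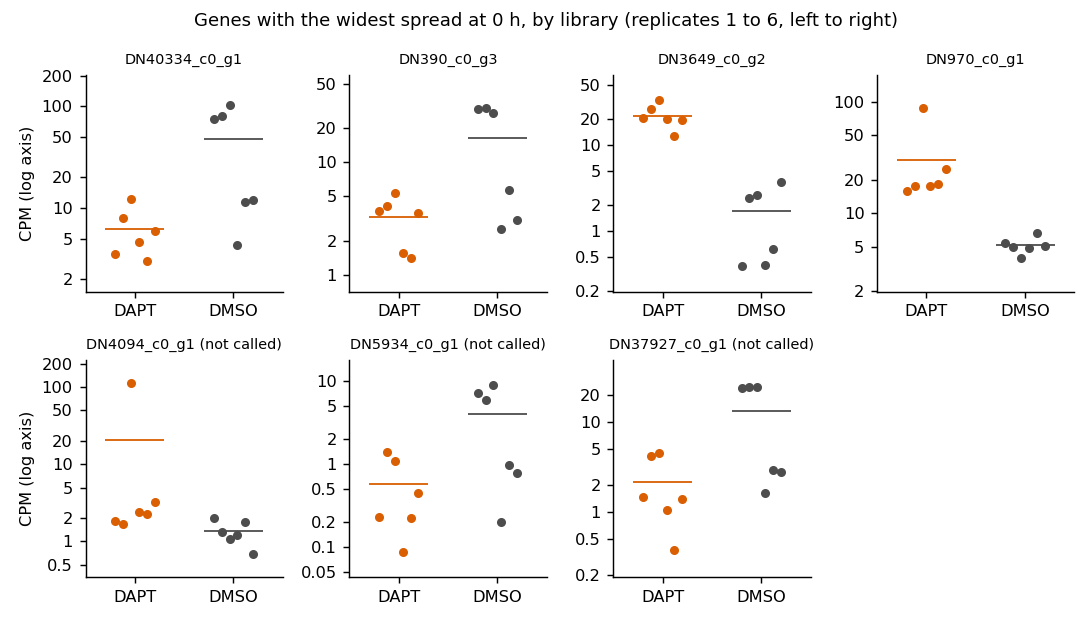
Called genes with the widest spread within a group and the 3 uncalled genes with the largest difference, as CPM on a log axis, with a point for each library in the order of replicates 1 to 6 and a line at each group mean. TRINITY_DN40334_c0_g1 shows 3 high and 3 low DMSO libraries, and TRINITY_DN4094_c0_g1 a DAPT library at 113 CPM with the other 5 at 1.66 to 3.26 CPM.

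Next to the threshold, a small steady difference was called and a larger uneven one was not. TRINITY_DN8904_c0_g1, the last gene called, ranged from 3.32 to 4.98 CPM in DAPT (median 4.29) and from 5.04 to 6.73 CPM in DMSO (median 5.95), without overlap (log2 fold change -0.48, SE 0.14, edgeR BH adjusted p = 0.0499). Its call was lost on leaving out any library other than DMSO replicate 3 or DAPT replicate 5 (adjusted p from 0.0535 to 0.128). TRINITY_DN8937_c0_g1, the first not called, had 22.2 to 40.9 CPM in DAPT (median 35.5) and 23.0 to 145 CPM in DMSO (median 69.0), a log2 fold change of -1.16 (SE 0.33, edgeR BH adjusted p = 0.0505), and was called without DMSO replicate 2 or 4 (adjusted p = 0.00404 and 0.0440).

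Genes that the assembly placed in the same component may share sequence and so reads. There were 250 components with several tested genes, which held 525 genes. Of these genes 60 were called, against 866 of all 12051 tested genes. Of the components, 43 held a called gene and 16 held at least 2. Most of the 43 thus held a single called gene, from which nothing is read, since few genes were called at all. In the 16, all called genes were lower in 10 components and higher in 5, and 1 was mixed, in a comparison where 73.7% of all calls were lower. The mixed component, named after its values were seen, held TRINITY_DN3321_c0_g1 with 3.37 CPM in DAPT and 0.791 CPM in DMSO (log2 fold change 2.06, SE 0.20) and TRINITY_DN3321_c0_g2 with 1.38 and 2.07 CPM (log2 fold change -0.56, SE 0.16, edgeR BH adjusted p = 0.0493).

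Of the genes described above, TRINITY_DN448_c0_g1 shared its component with TRINITY_DN448_c0_g2, which stood at 20.7 CPM in DAPT and 61.9 CPM in DMSO and fell less, with a log2 fold change of -1.59 (SE 0.23) against -4.25. TRINITY_DN3649_c0_g2 shared one with TRINITY_DN3649_c0_g1, at 15.1 CPM in DAPT and 8.32 CPM in DMSO (log2 fold change 0.86, SE 0.23, edgeR BH adjusted p = 0.0341). TRINITY_DN1822_c0_g2 and TRINITY_DN3406_c0_g1 rose with their abundant partners, with log2 fold changes of 1.40 (SE 0.22) and 1.81 (SE 0.20). The component with the most called genes, also singled out after its values were seen, was that of TRINITY_DN458_c0_g1, TRINITY_DN458_c0_g2 and TRINITY_DN458_c0_g3. They stood at 923, 75.04 and 28.8 CPM in DAPT and at 4500, 450 and 118 CPM in DMSO, with log2 fold changes of -2.28, -2.59 and -2.04 (SE 0.47, 0.41 and 0.37). No source used here says how reads were divided within a component, so the split between such genes is uncertain.

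The described genes were also read in the libraries of the later times, which have controls of their own. Of the 15 called lower genes named here for 0 h, 15 were lower in DAPT at 3 h and at 6 h, and 11 and 9 of them were called. Calls in that direction made up 4.51% and 2.64% of the genes tested at both times. The lower genes not called at 3 h were the most abundant ones, TRINITY_DN2787_c2_g1, TRINITY_DN744_c0_g1, TRINITY_DN1280_c0_g1 and TRINITY_DN3061_c1_g1 (edgeR BH adjusted p from 0.0705 to 0.454). Among these, TRINITY_DN2787_c2_g1 alone was called at 6 h (edgeR BH adjusted p = 0.0254). Of the 11 called higher genes, 11 were higher at both times, and 11 and 9 were called, against 1.37% and 0.767% of genes. Calls in either direction made up 5.89% of tested genes at 3 h and 3.41% at 6 h. TRINITY_DN11402_c0_g1 stood at 4.90 CPM in DAPT and 189 CPM in DMSO at 3 h, and at 6.41 and 189 CPM at 6 h. TRINITY_DN2004_c0_g1 stood at 51.3 and 1.94 CPM at 3 h, and at 36.4 and 2.27 CPM at 6 h. TRINITY_DN11146_c0_g1 stood at 11.4 CPM in DAPT and 3.33 CPM in DMSO at 3 h (log2 fold change 1.78, SE 0.24) and at 8.71 and 4.60 CPM at 6 h (log2 fold change 0.89, SE 0.32, edgeR BH adjusted p = 0.251). The change of this difference between times was not tested.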

How the data were processed

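Libraries were made from total RNA of whole animals with a strand-specific mRNA kit, per the labels. Reads were trimmed of adapters, polyA and splice leader sequences and filtered for quality and length before counting, per the labels, and Bowtie2, RSEM and DESeq2 1.18.1 are listed, with no role, per the submitters' processing notes. The authors deposited expected counts (estimated counts that need not be whole) for 12410 genes in 36 columns, of which 12 were used for 0 h. A column was given to a sample by its letter, number and time (P as DAPT, S as DMSO).

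Rounding these estimates to whole numbers gave 3 values of 0 at 0 h. filterByExpr removed 359 genes and left 12051. The test was edgeR 4.0.16 (R 4.3.3), quasi-likelihood F test with TMM scaling on the 12 libraries, BH adjusted p under 0.05. SE is that implied by the F statistic. The 3 h and 6 h values come from separate fits of their own 12 libraries. SDs on the log2 scale used a pseudocount of 0.5. Genes named were the 5 lower and 5 higher with the smallest p, the 3 and 3 with the largest fold at a mean of at least 1 CPM, the 4 and 4 highest in DMSO, the 2 and 2 with the widest spread, the 3 largest differences not called, and those next to the threshold. The members, rules and tests were chosen with earlier results of these data known. Alternatives used DESeq2 1.42.0, limma 3.58.1 (voom) and sva 3.50.0, and the closing section gives their effect. Counts limit precision for low genes, and p-values set the difference between treatments against the spread between these samples.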

Additional observations from a re-analysis of the deposited data

Results flagged for a closer look

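In 70 checks over 5 measures of the 0 h libraries and the 30 genes named above, 4 found a library far from the other 5 of its group. Chance gives about 3.5 in 70 unselected groups, a number that does not apply here, since TRINITY_DN970_c0_g1 was named for its wide spread and TRINITY_DN4094_c0_g1 for a large difference that was not called. TRINITY_DN4094_c0_g1 stood at 113.2 CPM in DAPT replicate 3, against 1.66 to 3.26 CPM in the other DAPT libraries. TRINITY_DN970_c0_g1 stood at 87.5 CPM in the same library, against 15.7 to 25.2 CPM. TRINITY_DN629_c0_g1 stood at 53.4 CPM in DMSO replicate 2, against 91.1 to 111 CPM in the other DMSO libraries. TRINITY_DN16506_c0_g1 stood at 14.6 CPM in the same library, against 26.7 to 34.0 CPM. Without DMSO replicate 2 the log2 fold changes of both genes were -4.35 and -4.38, and both stayed called.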

How the results depend on the processing

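Across 24 alternatives, the lower and higher counts stayed within 1.5 times 638 and 228 except in 2. With 3 surrogate variables 1231 genes were lower and 776 higher (61.3% lower), and at an adjusted p under 0.01 the counts were 380 and 138. Leaving out each library in turn gave 496 to 680 lower and 177 to 253 higher genes. Scaling by library totals put the median over all genes at 0.13 (log2), and gave 456 lower and 241 higher genes (65.4% lower, against 73.7%). DESeq2 called 786 and 308, limma-voom 584 and 228, and the fit of all 36 libraries 691 and 232. Without DMSO replicates 1 and 3, left out after seeing the data, 449 were lower and 219 higher. Without DMSO replicate 2 and DAPT replicate 3, also chosen then, the counts were 584 and 200. In 22 settings, the reported one among them and leaving aside the stricter threshold and both added ones, 360 lower and 140 higher genes were called in the same direction each time. Of the 26 called genes named, 19 kept their call in every setting with the threshold of 0.05, and none of the 30 named genes changed sign. With genes called by DESeq2, higher genes took 7.20% of counts in DAPT and 3.57% in DMSO. Replicate numbers were not taken to pair the samples, since the labels describe no batch or pairing. Same-numbered libraries deviated together for some numbers and not for others. Deviations of same-numbered libraries correlated at 0.21 to 0.51 for numbers 2 to 5 (median with other numbers -0.44 to -0.27) and at -0.50 and -0.15 for numbers 1 and 6, and 1 of 6 DAPT libraries correlated best with its own number. With the replicate block 613 genes were lower and 209 higher, and the calls of the 4 abundant lower genes and TRINITY_DN8904_c0_g1 were lost (adjusted p from 0.0507 to 0.127), while TRINITY_DN37927_c0_g1 and TRINITY_DN5934_c0_g1 were called (0.00874 and 0.00973). Levels under 1 CPM rest on few counts.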
